A study of Mus musculus with 6 samples.

Results

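The oligoadenylate synthetase genes examined here were Oas1a, Oas1b, Oas1c, Oas1g, Oas2, Oas3, Oasl1 and Oasl2, taken by symbol from a table of gene expression. They are 8 of its 23351 genes. The study compared primary chondrocytes of control mice with those of mice carrying a conditional knockout (cKO) of Uhrf1, whose protein binds hemimethylated DNA and recruits the maintenance DNA methyltransferase Dnmt1. Cells of both groups were released from C57BL/6 knee cartilage on postnatal day 3 with collagenase D. At confluence all of them received recombinant human BMP-2, a factor that drives chondrocyte differentiation, at 100 ng/ml for 24 hours. The sources used here give neither the Cre driver nor the number of animals behind a library. RNA was sequenced in 3 control and 3 cKO libraries, and each gene had a value in FPKM, which is fragments per kilobase of transcript, scaled to the size of the library.

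Oligoadenylate synthetases bind double-stranded RNA, a mark of viral infection or of unedited and repeat-derived transcripts, and join ATP into 2′,5′-linked oligoadenylates (2-5A). These oligoadenylates act as a second messenger that leads to the breakdown of viral and cellular RNA. The genes are classical targets of interferon: the factor ISGF3, which contains Stat2 and Irf9, binds a promoter element called the interferon-stimulated response element (ISRE). Humans have a single OAS1 gene, while the mouse carries a row of Oas1 copies beside Oas2 and Oas3. Oas1a and Oas1g encode active synthetases. Oas1c encodes a protein without synthetase activity, and the Oas1b protein of C57BL/6 mice is cut short by a premature stop codon that leaves these mice susceptible to flaviviruses. Oas2 and Oas3 encode larger enzymes built from repeated synthetase units. The Oasl proteins carry ubiquitin-like domains: Oasl2 is an active synthetase, whereas Oasl1 is inactive and restrains translation of Irf7 in the mouse.

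The members lie at 2 loci on mouse chromosome 5. Oasl2 and Oasl1 adjoin each other, and Oas2, Oas3 and the Oas1 copies form a cluster. Promoter windows of 300 bases, from 250 before to 50 after the start of the gene, were available from RefSeq (GRCm38.p6) for 6 of the 8 members. Oas1b and Oas2 are named only. The ISRE was searched as 2 copies of GAAA with any 2 bases between them, on both strands, and overlapping matches were counted. It occurred in the windows of 1079 of 27025 genes (3.99%) and in those of 4 of the 6 members, Oas1a, Oas1g, Oas1c and Oas3. The following 80-base stretches, 5′ to 3′ on the strand of the gene, are shown because they hold these matches, with matched bases in capitals.

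Oas1a (chr5:120907528-120907607, minus strand): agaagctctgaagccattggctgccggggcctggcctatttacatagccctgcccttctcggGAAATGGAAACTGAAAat
Oas1g (chr5:120887614-120887693, minus strand): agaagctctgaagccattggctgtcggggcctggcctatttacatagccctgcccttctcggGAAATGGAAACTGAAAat
Oas1c (chr5:120812555-120812634, minus strand): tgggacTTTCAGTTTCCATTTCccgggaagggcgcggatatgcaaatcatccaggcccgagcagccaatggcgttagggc
Oas3 (chr5:120777690-120777769, minus strand): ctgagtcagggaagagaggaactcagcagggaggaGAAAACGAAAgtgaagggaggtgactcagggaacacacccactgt

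The Oas1a and Oas1g stretches were identical at 79 of 80 bases. In each, 2 overlapping matches joined into the 16-base run GAAATGGAAACTGAAA, which ended 4 bases before the start of Oas1a and 2 bases before that of Oas1g when counted as the bases between them. Oas1c held the same run on the opposite strand. There it lay in the 120 bases between Oas1c and the divergent gene Oas1b, with 6 bases between the run and the start of Oas1b in the deposited table. Oas3 held 1 match, 75 bases before its start. The 16-base run was picked out after the windows had been seen. Among 27025 genes it occurred in the windows of 5, which were Oas1a, Oas1c, Oas1g and the apolipoprotein L genes Apol9a and Apol9b.

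Neither Oasl gene had an ISRE match, nor did Oas1f or Oas1h, the other Oas1 copies with a window. The 80 bases before the starts of the latter are shown for comparison with Oas1a and Oas1g.

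Oas1h (chr5:120861342-120861421, plus strand): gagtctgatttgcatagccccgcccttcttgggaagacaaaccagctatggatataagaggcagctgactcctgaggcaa
Oas1f (chr5:120847287-120847366, plus strand): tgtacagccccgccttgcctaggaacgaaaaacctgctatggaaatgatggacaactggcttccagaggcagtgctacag

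A second motif, the gamma-activated site of interferon gamma signalling, was searched as TTCNNNGAA, which reads the same on both strands. It occurred in 9.55% of the 27025 genes and, among members, in the window of Oas1a, 98 bases before the start. The windows of the 6 members held 3 to 9 CpG dinucleotides, against a median of 7 and quartiles of 3 and 20 over all 32851 windows. CpG dinucleotides are the sites that Dnmt1 methylates, but methylation was not measured. A motif match describes letters in a window, and a missing match says only that these letters are not there.

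The libraries were similar in depth. Relative to control replicate 1, set to 1, depth read from the steps between low values was 0.864 to 1.01, and 11233 to 11635 genes reached 1 FPKM. Uhrf1, the targeted gene, stood at 28.2, 22.9 and 30.6 FPKM in control libraries and at 3.22, 3.17 and 2.73 in cKO libraries. It was 8.96-fold lower by group mean (log2 difference -2.80, SE 0.13; limma, adjusted p = 1.7e-06). Whether each library had its own animal or culture is not in the labels. The p-values therefore measure the spread between these samples alone, which may be technical. The library names begin with another number in all controls than in all cKO libraries, and the meaning of that number cannot be told apart from genotype. The Y-linked gene Ddx3y stood at 31.6, 0 and 24.3 FPKM in control libraries and at 22.2, 0 and 0 in cKO libraries.

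All 8 members were scarce in control chondrocytes and higher in cKO cells. Their summed level was 1.99, 0.789 and 2.06 FPKM in the control libraries and 21.7, 21.2 and 29.5 in those of cKO cells. The means were 1.61 ± 0.714 (SD, n = 3) and 24.1 ± 4.61 (SD, n = 3), a ratio of 15.0. No member reached 1 FPKM in any control, where the highest value was 0.591, and 8 of the 24 control values were listed at 0. All 24 cKO values were above 0, and for each of the 8 members every cKO value lay above every control value, though for Oasl1 by no more than the scaling to depth adds. The same held for 16.5% of the 16187 genes above 0 FPKM in any library. In bulk RNA, fewer cells that express a gene and less RNA per cell cannot be told apart.

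**Figure D1:**
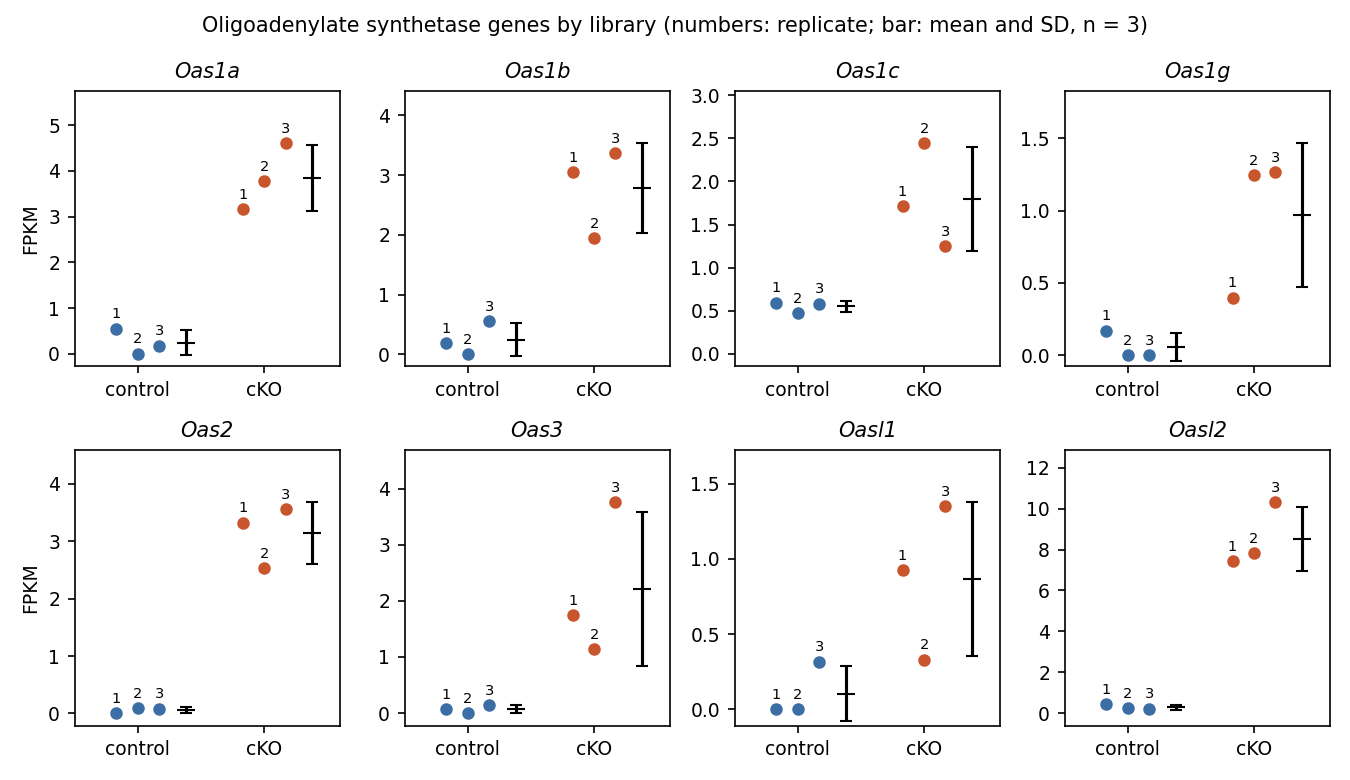
FPKM of each of the 8 members (vertical axes, scaled separately) in the 3 control (blue) and 3 cKO (orange) libraries, numbered by replicate, with bars for the mean and SD of each group. No control point reaches 1 FPKM, the cKO points lie above the control points in every panel, and cKO replicate 3 is the highest of its group for 7 of the 8 genes.

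Oas1a, Oas1b, Oas1c, Oas1g, Oas2, Oas3 and Oasl2 reached the level at which genes were tested, 1 FPKM in at least 2 libraries, and Oasl1 did not. All 7 were called higher in cKO cells at an adjusted p under 0.05, beside 9.81% of the 11911 genes tested. They reached the tested level through the cKO libraries alone. A gene of that kind had to differ between the groups, so the count of 7 describes them and does not measure how unusual they are. Fitted differences below are differences of log2(FPKM + 1), a scale that compresses the change of genes this low.

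Oas1a (chr5:120896257-120907525 in mm10) stood at 0.547, 0 and 0.180 FPKM in control libraries and at 3.16, 3.77 and 4.61 in cKO libraries. Its mean rose from 0.242 ± 0.279 (SD, n = 3) to 3.85 ± 0.724 (SD, n = 3), with a log2 difference of 1.98 and an SE of 0.22 (limma, adjusted p = 0.000296). The highest control was at 0.547 FPKM and the lowest cKO library at 3.16, so the groups were far apart.

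Oas1g (chr5:120876142-120887598), the other copy for an active enzyme, was lower and less certain. Its values were 0.172, 0 and 0 FPKM in control libraries and 0.397, 1.24 and 1.27 in cKO libraries, with cKO replicate 1 well below the other two. The means were 0.0572 ± 0.0992 (SD, n = 3) and 0.968 ± 0.495 (SD, n = 3), with a log2 difference of 0.87 and an SE of 0.25 (limma, adjusted p = 0.0407). The call was lost when any library except cKO replicate 1 was left out (limma, adjusted p = 0.0645 to 0.131), and also with a covariate for Y-linked transcript (limma, adjusted p = 0.0914).

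The transcripts of Oas1a and Oas1g are hard to separate. In the GENCODE M21 annotation, 57.6% of the 50-base runs of the Oas1a transcript recurred in transcripts of Oas1g. Conversely, 45.2% of the Oas1g runs recurred in Oas1a, and at 75 bases the shares were 47.6% and 36.9%. The sources used here do not say how reads that match both were divided, so the split of signal between them is uncertain. The summed FPKM of both genes, which can still shift with the handling of such reads, was 0.719, 0 and 0.180 FPKM in control libraries and 3.56, 5.01 and 5.87 in cKO libraries. Oas1c shared 9.82% of its 50-base runs with other Oas genes, most of them with Oas1e, and Oas1b shared 1.17%. Oas2, Oas3, Oasl1 and Oasl2 shared no 50-base run with another gene of the family.

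**Figure D2:**
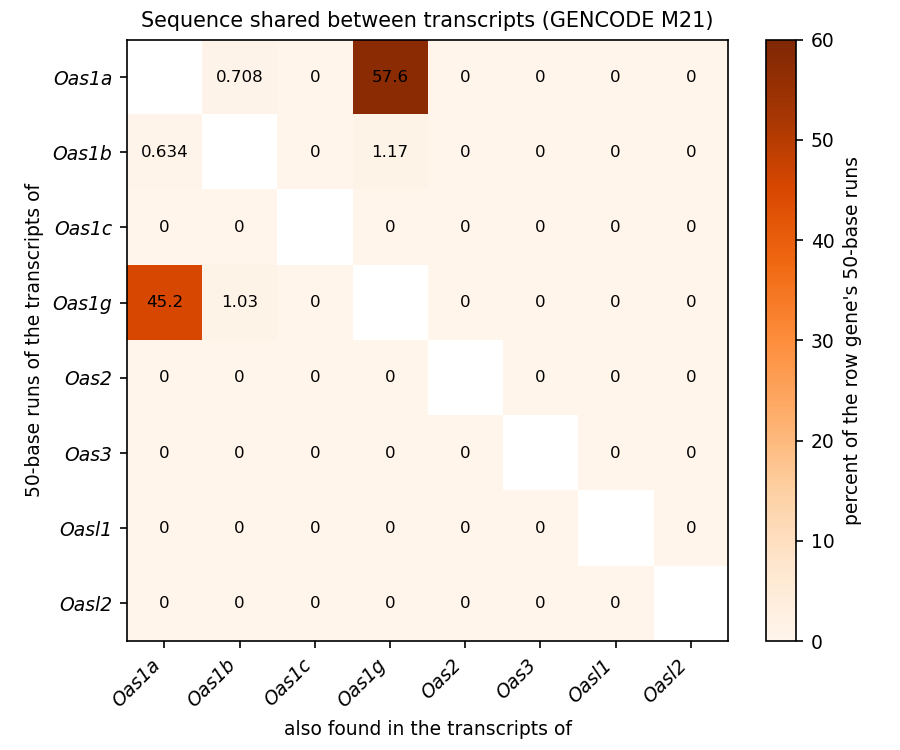
Percent of the 50-base runs in the transcripts of each member (rows) that also occur in the transcripts of another member (columns), from the GENCODE M21 annotation. Oas1a and Oas1g share 57.6% and 45.2% of their runs, and every other pair shares 1.17% or less.

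Oas1b (chr5:120812635-120824160) stood at 0.188, 0 and 0.556 FPKM in control and at 3.05, 1.94 and 3.37 in cKO libraries. The mean rose from 0.248 ± 0.283 (SD, n = 3) to 2.79 ± 0.747 (SD, n = 3), with a log2 difference of 1.61 and an SE of 0.24 (limma, adjusted p = 0.00161). GENCODE classes the gene as a polymorphic pseudogene, so a higher RNA level here says nothing of a working flavivirus resistance protein.

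Oas1c (chr5:120800199-120812514), the neighbour of Oas1b and the copy without synthetase activity, had the highest control mean of the family. Its values were 0.591, 0.474 and 0.583 FPKM in control libraries and 1.71, 2.44 and 1.24 in cKO libraries. It rose 3.28-fold, from 0.549 ± 0.0653 (SD, n = 3) to 1.80 ± 0.605 (SD, n = 3), with a log2 difference of 0.83 and an SE of 0.21 (limma, adjusted p = 0.0220). The call was lost without control replicate 2, cKO replicate 1 or cKO replicate 2 (limma, adjusted p = 0.0682, 0.0581 and 0.0796). It was the member whose order among cKO libraries departed from the rest: replicate 3 was its lowest and was the highest for each of the other 7.

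Oas2 (chr5:120730333-120749848) was among the least detected members in control cells, at 0, 0.0903 and 0.0832 FPKM. It stood at 3.32, 2.53 and 3.56 FPKM in the cKO libraries. The mean rose from 0.0578 ± 0.0502 (SD, n = 3) to 3.14 ± 0.538 (SD, n = 3), with a log2 difference of 1.96 and an SE of 0.18 (limma, adjusted p = 0.000117). The lowest cKO value was thus far above the highest control value.

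Oas3 (chr5:120753098-120777659), whose protein favours long double-stranded RNA, stood at 0.0686, 0 and 0.135 FPKM in control libraries and at 1.75, 1.13 and 3.75 in cKO libraries. It rose from 0.0679 ± 0.0675 (SD, n = 3) to 2.21 ± 1.37 (SD, n = 3), with a log2 difference of 1.51 and an SE of 0.29 (limma, adjusted p = 0.00654). Relative to the mean, its cKO libraries were the most spread of the 8 members, with replicate 3 above the others.

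Oasl2 (chr5:114896934-114912245) was the most abundant member in cKO cells. Control libraries held 0.421, 0.225 and 0.207 FPKM, and cKO libraries 7.43, 7.83 and 10.3. The mean rose 30.0-fold, from 0.285 ± 0.119 (SD, n = 3) to 8.52 ± 1.56 (SD, n = 3), with a log2 difference of 2.88 and an SE of 0.17 (limma, adjusted p = 6.81e-06).

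Oasl1 (chr5:114923240-114937911), the inactive partner of Oasl2, stood at 0, 0 and 0.316 FPKM in control libraries and at 0.927, 0.331 and 1.35 in cKO libraries. The gap between control replicate 3 and cKO replicate 2 was narrow: both values correspond to the same smallest whole number of units, 2, and differ through the scaling to depth. In a fit of all 16187 genes above 0 FPKM in any library, where 7.12% were called higher in cKO cells, its log2 difference was 0.73 with an SE of 0.22 and it was not called (limma, adjusted p = 0.0666).

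The low members rest on few fragments. For 8 of 8 members the values in the 6 libraries, corrected for relative depth, stood in ratios of small whole numbers. The tolerance was 0.03 of a unit or, above 10 units, 0.3% of the value. The same held for 1636 of 5169 genes (31.7%) with a mean of 0.3 to 6 FPKM over the 6 libraries. The smallest whole numbers in these ratios were 4, 2, 2 in control libraries and 61, 72, 93 in cKO libraries for Oasl2. For Oas1g they were 1, 0, 0 and 2, 7, 7, and for Oasl1 they were 0, 0, 2 and 5, 2, 8. Fragment counts may be multiples of these, so no count test was run on them. Genes with a library near the smallest unit meet this rule easily, so the 8 of 8 restates the low control values.

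By group mean in FPKM, which is scaled to length, the order in cKO cells was Oasl2, Oas1a, Oas2, Oas1b, Oas3, Oas1c, Oas1g and Oasl1. Oasl2 stood above Oas1a in every cKO library. Each later neighbour in that order overlapped the one before it in its cKO values, so the order among them is not settled beyond the spread. Oasl2 made up 35.4% of the summed cKO level (34.2 to 36.9% per library) and Oas1a 16.0%. In the controls Oas1c made up the greatest mean share, 39.4% (28.3 to 60.1% per library), against 7.87% (4.23 to 11.5%) in cKO cells. The control shares rest on family sums of only 0.789 to 2.06 FPKM.

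The authors' deposited table holds their own test of each gene, with the status NOTEST where a gene was considered too low. In the authors' deposited table, Oasl2 passed at q = 0.0154 and Oas1a did not, at q = 0.0668. The other 6 members had the status NOTEST, as did 13499 genes in all. That test called 11.7% of the 9701 genes it tested higher in cKO cells.

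The other 4 Oas1 copies of the cluster were at or near 0. Oas1d and Oas1f were listed at 0 in all 6 libraries, Oas1e at 0.210 FPKM in cKO replicate 2 alone, and Oas1h at 0.216 FPKM in cKO replicate 3 alone. These 4 lie among and beside the Oas1 members in the same cluster.

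The 5 nearest genes on each side of the 2 loci were compared to see how far along the chromosome the difference reached. Of these 20 neighbours, 13 were tested. Limma called 0 of the 13 higher in cKO cells, and 0 were higher at an unadjusted p under 0.05. The authors' deposited test called 0 of the 11 neighbours it tested higher. Next to the Oas cluster, Trafd1, a regulator of innate immune signalling, had a log2 difference of 0.20 (limma, adjusted p = 0.177). Rpl6, a ribosomal protein gene, fell from 862 ± 63.8 (SD, n = 3) to 712 ± 27.5 FPKM (SD, n = 3), with a log2 difference of -0.27 and an SE of 0.07 (limma, adjusted p = 0.0334). The share of all tested genes called lower was 7.96%. The Rpl6 call was lost without control replicate 2 or any of the cKO libraries (limma, adjusted p = 0.0651 to 0.137). The other tested neighbours of the cluster, 1110008J03Rik, Ddx54, the phosphatase gene Ptpn11 and Gm15800, differed by -0.12 to 0.08. Beside the Oasl pair, the differences ran from -0.66 for 2610524H06Rik, which was not called (limma, adjusted p = 0.137), to 0.19 for the acyl-CoA dehydrogenase gene Acads. Ankrd13a, 1500011B03Rik, 2210016L21Rik, Sppl3 and Gm13826 lay between them. Ccdc42b and Rph3a were at 0 throughout, and Rasal1, Dtx1, 4930515G01Rik and 4930519G04Rik were too low to test.

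**Figure D3:**
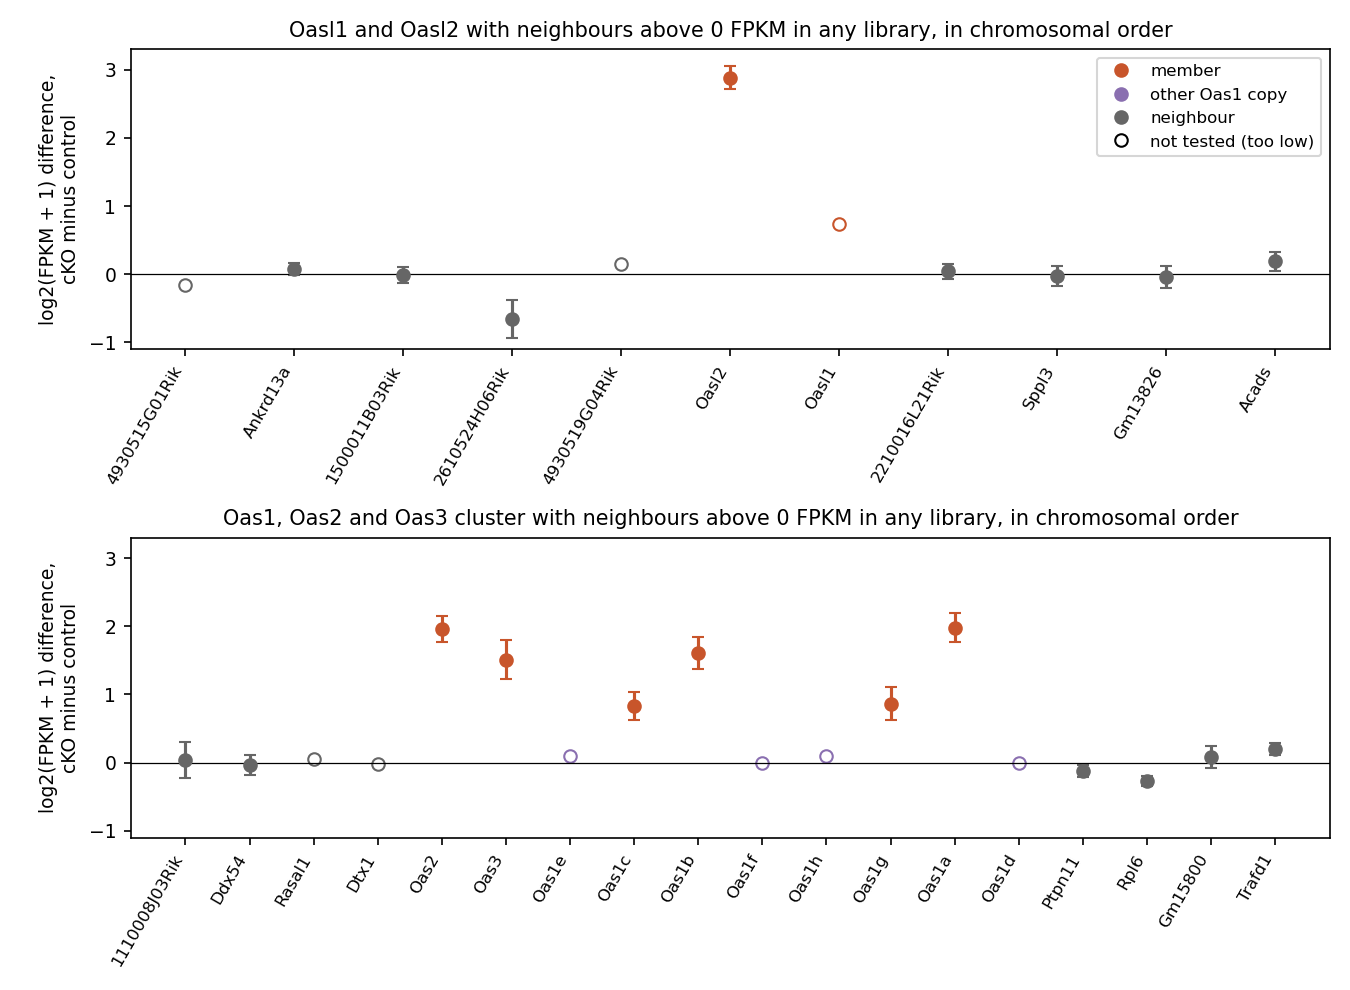
Difference between cKO and control cells on the log2(FPKM + 1) scale (vertical axis) for genes in chromosomal order at the Oasl pair and the Oas cluster, leaving out neighbours at 0 in all libraries; filled points are fitted differences with their SE and open points are genes too low to test, drawn at the difference of the group means of log2(FPKM + 1). Tested members run from 0.83 to 2.88, while tested neighbours run from -0.66 to 0.20.

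Other genes tied to 2-5A signalling did not pass the test. Abce1, which also serves in ribosome recycling, had means of 71.9 and 64.7 FPKM (limma, adjusted p = 0.263), and Pde12, a phosphodiesterase that degrades 2-5A, 5.09 and 5.16 FPKM (limma, adjusted p = 0.986).

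Other sensors of double-stranded RNA were higher as well. Of 9 genes on that list, all tested, 7 rose and 2 were not called, beside 9.81% of all 11911 genes called higher. Their median log2 difference was 1.16, against 0.00039 over all genes tested. Of the 8 with a control mean of at least 1 FPKM, 6 rose, beside 882 of 11252 such genes. Dhx58, a helicase of the RIG-I family, rose from 1.22 ± 0.371 (SD, n = 3) to 9.03 ± 4.10 FPKM (SD, n = 3), a log2 difference of 2.11. Ddx58, which encodes RIG-I, had a log2 difference of 1.37 and Ifih1, which encodes MDA5, 1.29. Zbp1, a sensor of Z-form nucleic acid, had 1.73 but reached the tested level through the cKO libraries alone. Tlr3 was also among the 7, but its call was lost without control replicate 2, control replicate 3 or cKO replicate 2 (limma, adjusted p = 0.0595 to 0.0829).

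None of the 10 interferon ligand genes examined was detected at this depth. All 10, among them Ifnb1, Ifng, Ifna4 and Ifnl3, were listed at 0 in all 6 libraries. Other interferon genes were not examined. Of 5 interferon receptor genes tested, 1 was called higher, beside 9.81% of all genes tested. Ifnar2, a chain of the type I receptor, stood at 25.4 ± 1.64 (SD, n = 3) and 31.6 ± 0.697 FPKM (SD, n = 3), and its call held only without control replicate 2 among the 6 libraries left out in turn. Ifngr1, a chain of the interferon gamma receptor, stood at 24.7 and 20.2 FPKM and was not called (limma, adjusted p = 0.247).

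Among signal transducers and interferon regulatory factors, 7 of 13 tested genes rose and 6 were not called, beside 9.81% of all genes called higher. The median log2 difference was 0.53. Of the 12 with a control mean of at least 1 FPKM, 6 rose. Irf7, the amplifier of interferon production whose translation Oasl1 restrains, rose 10.9-fold, from 1.18 ± 0.798 (SD, n = 3) to 12.9 ± 2.17 FPKM (SD, n = 3). The ISGF3 subunit genes Stat2 and Irf9 had log2 differences of 1.77 and 1.67, and Irf5 had 1.41. Ikbke was also among the 7 but lost its call without control replicate 2, control replicate 3, cKO replicate 1 or cKO replicate 3 (limma, adjusted p = 0.0747 to 0.143). Of the 4 feedback inhibitors, Usp18, which blocks signalling at the type I receptor, rose from 1.30 ± 1.07 (SD, n = 3) to 15.5 ± 3.15 FPKM (SD, n = 3), a log2 difference of 2.95. Socs3 and Pias1, the most abundant of the 4, were not called (limma, adjusted p = 0.470 and 0.191).

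The effector genes that interferon induces followed the same direction as the synthetases. Of 28 such genes in the table, 23 were tested, 20 rose and 3 were not called, with a median log2 difference of 1.82. Unlike the synthetases, most could be measured in control cells: 16 of the 19 tested with a control mean of at least 1 FPKM rose, beside 882 of 11252 such genes. Isg15, a ubiquitin-like modifier, rose 23.0-fold, from 6.61 ± 1.24 (SD, n = 3) to 152 ± 28.6 FPKM (SD, n = 3), a log2 difference of 4.33. Rtp4, Ifit1 and Bst2, whose products restrict viruses, had log2 differences of 3.18, 3.17 and 3.10. The call of Iigp1 was lost when control replicate 1, 2 or 3 or cKO replicate 1 or 3 was left out (limma, adjusted p = 0.0630 to 0.129).

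**Figure D4:**
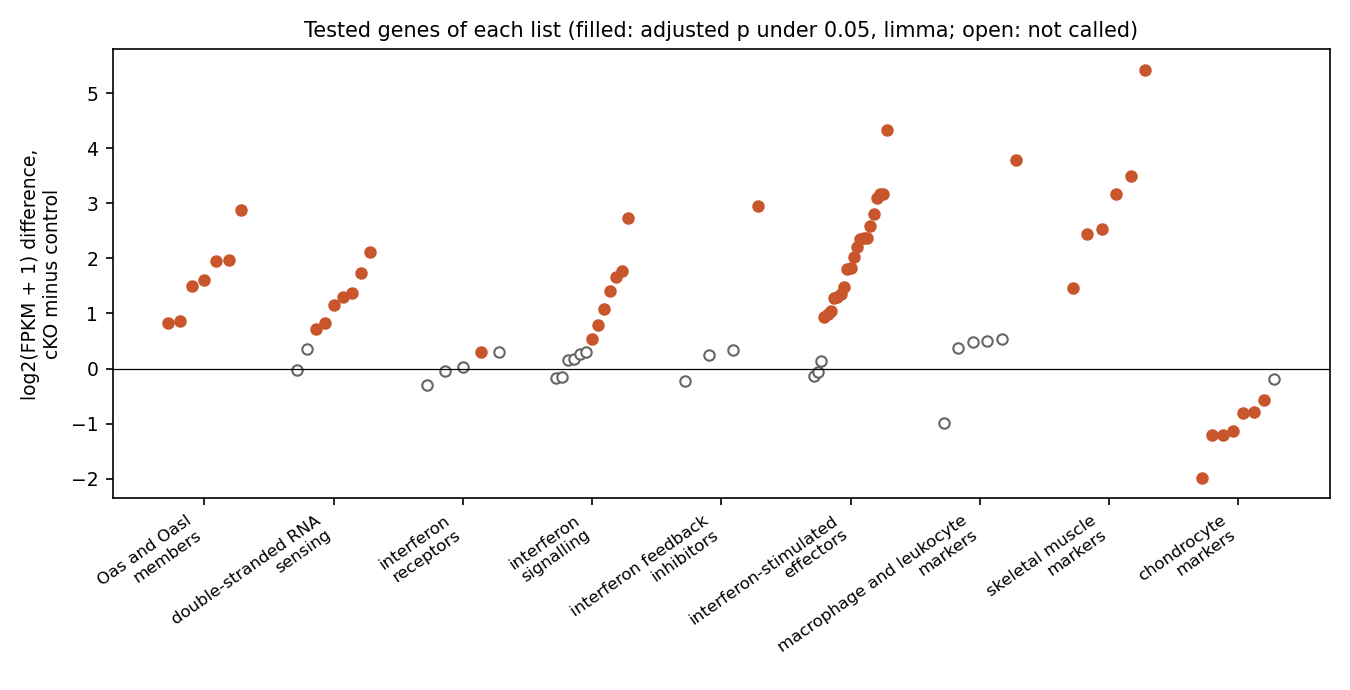
Difference between cKO and control cells on the log2(FPKM + 1) scale (vertical axis) for each tested gene of the listed groups, filled where limma's adjusted p was under 0.05 and open otherwise. The synthetases, 20 of 23 interferon-stimulated effectors and all 6 muscle markers lie above 0 as filled points, while the receptors scatter about 0 and 7 of 8 chondrocyte markers are filled below it.

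The ISRE letters used above occurred in the windows of 10 of the 23 effector genes with a window (43.5%), and the gamma-activated site in 8 of them (34.8%). Apol9a and Apol9b, which hold the 16-base run of Oas1a, were higher in cKO cells too. Apol9a rose from 3.13 ± 1.14 (SD, n = 3) to 23.0 ± 1.15 FPKM (SD, n = 3), with a log2 difference of 2.57 (limma, adjusted p = 1.93e-05). Apol9b rose from 0.768 ± 0.928 (SD, n = 3) to 15.2 ± 2.94 FPKM (SD, n = 3), with a log2 difference of 3.31 (limma, adjusted p = 0.000157). These 2 genes may also share reads, but their transcripts were not compared.

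Likeness to the family was measured as Pearson's r between a gene's log2(FPKM + 1) and that of the summed level of the 8 members over the 6 libraries. The 5 highest values were 0.999 for Eif2ak2, Ifi44 and Ifit1, 0.998 for Stat2 and 0.997 for Pnpla7. Eif2ak2 encodes PKR, a kinase activated by double-stranded RNA, and stood at 11.4, 9.30 and 11.7 FPKM in control libraries and 25.4, 23.9 and 26.6 in cKO libraries. All 5 genes had replicate 2 lowest among the controls, as did the summed synthetases, beside 30.5% of all genes tested. They were picked for likeness over these same libraries, so the shared order is no separate evidence. The r values are a description: the libraries fall into 2 genotype groups, and 524 of 11872 genes (4.41%) had an r of at least 0.95. Pnpla7, a lysophospholipase gene, rose from 2.43 to 4.03 FPKM, and its call was lost without control replicate 2 or any of the cKO libraries (limma, adjusted p = 0.0640 to 0.0762).

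Among cKO libraries, replicate 3 was the highest for 17 of 23 effectors (73.9%) and 9 of 13 signalling genes (69.2%), as for 7 of 8 synthetases, beside 31.1% of all genes tested. Other markers moved with genotype beside the synthetases. The chondrocyte markers summed to 8949 to 12288 FPKM in the controls and 6170 to 6587 in the cKO libraries, so the labelled cell type was present in both groups. Of 8 chondrocyte markers, 7 fell, beside 7.96% of all genes tested. Log2 differences were -1.99 for Matn1, -1.20 for Matn3, -1.20 for Col11a2 and -1.14 for Col9a1. The skeletal muscle markers summed to 0.93 to 3.88 FPKM in the controls and 82.9 to 148 in the cKO libraries. All 6 rose, beside 9.81% of all genes tested, but only Acta1 had a control mean of at least 1 FPKM. The other muscle markers were tested through their cKO values, so this count does not measure how unusual they are. The 6 muscle markers included Mylpf with a log2 difference of 5.42, Acta1 with 3.49, Des with 3.17 and Myh3 with 2.53. Of the 6, 5 were highest in cKO replicate 3. Their part in the rise of the synthetases was not tested.

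Immune cells express these synthetases strongly, so their markers were examined too. The 11 macrophage and leukocyte markers summed to 10.5 to 51.4 FPKM in the controls and 28.6 to 39.3 in the cKO libraries. Lyz2 was the most abundant of them in every control and Fcer1g in every cKO library. Of the 6 tested, 1 was called higher, beside 9.81% of all genes tested. This was Fcer1g, which rose from 0.234 ± 0.405 (SD, n = 3) to 15.9 ± 3.77 FPKM (SD, n = 3). Fcer1g reached the tested level through the cKO libraries alone, so its call does not measure how unusual it is. The other 5 were not called: control and cKO means were 1.68 and 2.72 FPKM for Cd68, 0.662 and 1.33 for Csf1r, 0.881 and 1.91 for Cd14, 0.682 and 1.11 for Laptm5, and 25.5 and 9.65 for Lyz2. Of these 6, Fcer1g and Csf1r had every cKO value above every control value. The same held for 16.5% of the 16187 genes above 0 FPKM in any library. The median log2 difference of the 6 was 0.49. The remaining markers were too low to test. Ptprc, which encodes the pan-leukocyte protein CD45, was at or below 0.131 FPKM in every library. Its cKO values of 0.0720, 0.129 and 0.131 still lay above its control values of 0.0622, 0.0665 and 0. Control and cKO means were 0.422 and 0.0392 FPKM for Emr1, 0.166 and 0.0243 for Itgam, and 0.089 and 0.030 for Cx3cr1. Cd52 had means of 0.323 and 0.340 FPKM. All 6 lymphocyte and plasmacytoid dendritic markers, among them Cd3e, Cd79a, Nkg7, Siglech and Ccr9, were at 0 in all libraries. The endothelial markers summed to 0.200 to 0.363 and 0.352 to 0.943 FPKM, with Emcn at 0 throughout.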

How the data were processed

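Total RNA with an integrity number above 8 was made into stranded mRNA libraries, per the labels' protocols. TopHat mapping to mm10 was followed by Cufflinks, per the series text and the submitters' processing notes. The sources used here give no versions, annotation, strand setting or scaling. Per the file headers, the authors deposited FPKM for each library and group mean, with their own log2 fold change, score, p-value, q-value and status. Deposited starts count from 0, so 1 was added, and 1 empty line is not analysed here. The 11911 genes that reached 1 FPKM in at least 2 libraries were fitted as log2(FPKM + 1) in limma 3.58.1 under R 4.3.3, using lmFit and then eBayes with its trend and robust settings. Tests were two-sided, adjusted after Benjamini and Hochberg over all of these genes. The procedure was tested on simulated data. A count test does not suit FPKM and was not run, and absolute depth is unknown. Fold values are ratios of group mean FPKM.

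The members, lists and tests were chosen with earlier results of these data known. Named genes are the members, Uhrf1, the other Oas1 copies, the 2-5A pathway genes, 5 neighbours per side of each locus, the 5 genes most like the family, and of each other list up to 4 called genes by size of difference, or the 2 of highest mean where fewer than 2 were called. Named outside that rule, after their values were seen, were Ddx3y, Apol9a, Apol9b, Tlr3, Ikbke, Iigp1, Emcn and the genes listed at 0. So were Ptprc, Lyz2, Cd68, Csf1r, Cd14, Laptm5, Emr1, Itgam, Cx3cr1 and Cd52. Usp18 and Fcer1g, each the 1 called gene of its list, were also named. Some genes of the lists and neighbours are not reported here.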

Additional observations from a re-analysis of the deposited data

How the results depend on the processing

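Of 114 recomputed values of the 7 tested members, 99 stayed on the same side of the threshold, 15 lost their call and 0 reversed; those lost were of Oas1c, Oas1g and, in the authors' deposited test, Oas1a. Oasl1, tested in the fit of all genes above 0 FPKM alone, had log2 differences of 0.55 to 0.96 without 1 library, given without a test. Of the 7 members called, 5 to 6 were called when 1 library was left out, 6 with a covariate for Y-linked transcript, 5 at an adjusted p under 0.01 or with a log2 difference of at least 1, and 7 under the other filters, pseudocounts and scalings. The authors' deposited test called 1 of the 2 members it tested. Over all genes, 1168 were higher and 948 lower in cKO cells; leaving out 1 library gave 775 to 1089 and 502 to 930, an adjusted p under 0.01 gave 647 and 377, and a log2 difference of at least 1 gave 431 and 75. Among fits that left out 1 library, the fewest of both came without cKO replicate 3, and the count of lower genes was 598 without cKO replicate 1 and 629 without cKO replicate 2. The cause of these shifts was not tested. Counts over gene lists under the alternatives were added after seeing the data: with a log2 difference of at least 1, 4 of 8 chondrocyte markers were lower, and the authors' test called 2 of the 5 muscle markers it tested. Upper-quartile scaling moved the median of all genes by 0.02 on the log2 scale. Genes near the low end rest on few fragments, which limits Oas1g and Oasl1 most.

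Samples share replicate numbers across groups, but deviations of same-numbered samples correlated at 0.169, 0.0258 and -0.0443, so the numbers were not taken to pair them. With a replicate block, 6 members were called (Oas1g lost its call, adjusted p = 0.0565, limma), and 1151 genes were higher and 946 lower.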
